A study of Mus with 6 samples.

Results

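The genes described here encode the core of insulin and insulin-like growth factor (IGF) signaling: a ligand, receptors, receptor substrates and binding proteins. They were chosen by Ensembl ID as a list of 10 genes, of which 9 were found among the 15646 genes of the count table; Igf2 was not analysed here. Of the 9, 8 passed the filter on low counts and were tested (Igf1, Igf1r, Insr, Irs1, Irs2, Igfbp3, Igfbp4 and Igfbp5), and Igfbp2 was too scarce. The RNA came from KPC1199 tumors, a mouse pancreatic ductal adenocarcinoma line implanted orthotopically, that is, into the pancreas itself. The hosts were either obese through the ob/ob genotype, a loss of the hormone leptin, or lean and wild type (WT); both received the same line. Each group had 3 libraries, named by the number in their titles as obese 1, 3 and 4 and lean 1, 2 and 3. No label used here tells the age or sex of the hosts, how long the tumors grew, or whether each library was a separate mouse. The p-values therefore reflect only how much these libraries vary, and part of that may be technical.

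IGF1 and insulin bind receptor tyrosine kinases, the IGF1 receptor and the insulin receptor, which phosphorylate the insulin receptor substrates IRS1 and IRS2. The substrates recruit phosphoinositide 3-kinase, which activates AKT and so promotes glucose uptake, protein synthesis, growth and survival. IGF-binding proteins (IGFBPs) carry IGFs outside the cell and control how much ligand reaches the receptor. In the pancreas, insulin is made by islet beta cells, and ob/ob mice are known for high circulating insulin; neither insulin nor the phosphorylation of any of these proteins was measured here.

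The libraries held 7122533 to 8521244 counts. Levels are given as CPM, that is, counts relative to the size of the library after scaling by TMM factors. They compare a gene between tumors, not one gene with another, since no transcript length was used. On the first principal component of all genes tested (54.1% of the variance) the obese and lean libraries separated, and on the second (15%) obese 3 stood apart at -37.7, against -6.45 to 17.5 for the other libraries. Where leaving out a library ended a call or moved a value by over 1.5 times, the value without it, or the range over the libraries left out, is given beside the result. The bulk tissue mixes tumor cells with host cells, so fewer cells of a type and less RNA per cell cannot be told apart. Marker genes of islets, fibroblasts or other cells, and the remaining genes of the pathway, were listed by symbol and not analysed here. The RefSeq gene table used here holds no Ensembl IDs, so it could not link these symbols to the count table.

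Transcripts of the IGF1 receptor, of the substrate Irs2 and of the binding protein Igfbp4 were lower in tumors of obese than of lean mice, and no member was higher past the threshold. Thus 3 of the 8 tested genes were called at an adjusted p under 0.05, where 20.8% of all 14348 genes tested were called, all 3 of them lower and 0 higher, where 10.6% of all genes were called lower and 10.3% higher. The changes were moderate, between 0.636 and 0.808 times the lean level. The remaining 5 genes did not pass the test, 3 of them with a fitted level above and 2 with one below that of the lean group. The median log2 fold change was -0.16 over the 8 members and 0.01 over all genes tested, and the median size was 0.39 and 0.32. The groups did not overlap for 4 of the 8 (Igf1r, Insr, Irs2 and Igfbp4), each lower in every obese library, where 40.3% of all genes tested did not overlap in one direction or the other. Over 8 genes these shares are not far from the background, and they are not a result about the group as a whole.

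**Figure D1:**
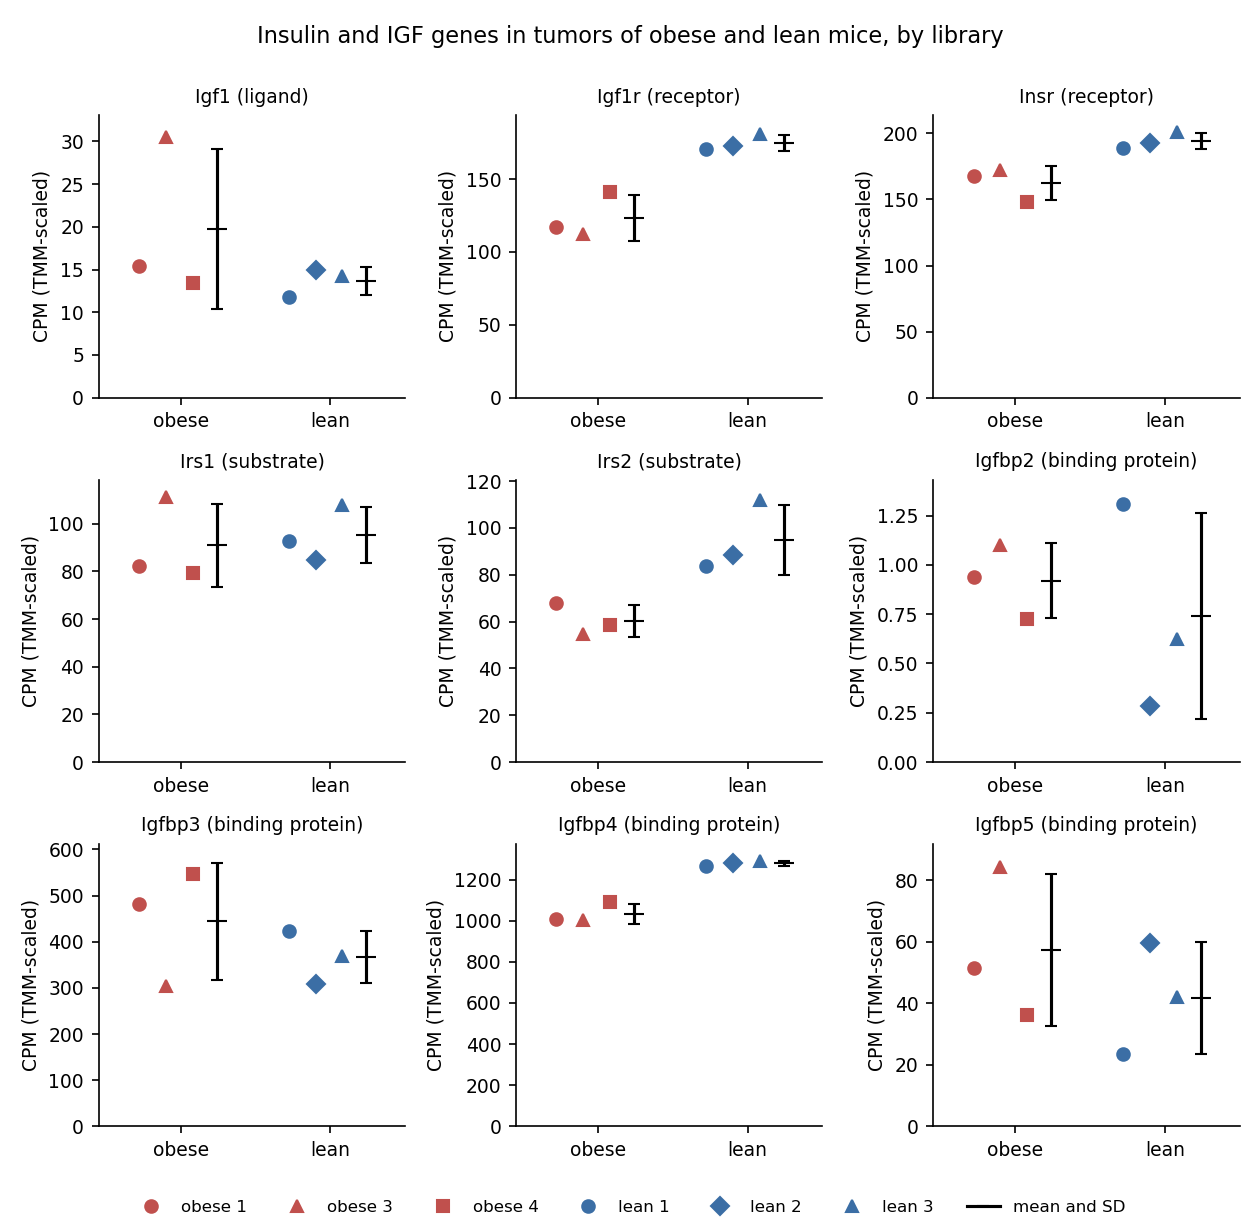
CPM of the 9 genes in each library (vertical axes start at 0), with the mean and SD of the 3 obese (red) and 3 lean (blue) libraries beside the points. Igf1r, Insr, Irs2 and Igfbp4 lie lower in all 3 obese libraries than in any lean one, whereas Igf1 and Igfbp5 reach their highest values in obese 3 alone.

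Irs2 (ENSMUSG00000038894.7), at chromosome 8, 10984681 to 11008929 (RefSeq gene span, GRCm38), encodes the substrate best known for its role in liver and beta cells. RefSeq lists a gene that overlaps this span (9530052E02Rik), as it does for Igf1r and Igf1. Only whole spans were compared, so whether the exons of such a pair share reads was not tested. Irs2 had 68.0, 54.6 and 58.5 CPM in obese 1, 3 and 4, against 83.9, 88.6 and 112 CPM in lean 1, 2 and 3. Every obese library was below every lean library. Irs2 averaged 60.4 ± 6.90 CPM in obese and 94.9 ± 15.2 CPM in lean tumors (SD, n = 3 each). The log2 fold change was -0.65 with a standard error (SE) of 0.14 and a 95% interval of -0.96 to -0.35, or 0.636 times the lean level (edgeR quasi-likelihood test, Benjamini-Hochberg adjusted p = 0.0101). It was the member with the smallest adjusted p, and the call held without any 1 of the 6 libraries, with log2 fold changes of -0.75 to -0.52 (edgeR adjusted p = 0.0118 to 0.042).

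Irs1 (ENSMUSG00000055980.2), at chromosome 1, 82233105 to 82291439, encodes the closely related substrate that is prominent in muscle and fat and in IGF1 signaling. It had 82.4, 111 and 79.2 CPM in obese 1, 3 and 4, against 92.7, 84.9 and 108 CPM in lean 1, 2 and 3. The groups overlapped, with obese 3 the highest of the 6 libraries. Its log2 fold change was -0.07 (SE 0.15, 95% interval -0.39 to 0.25, edgeR adjusted p = 0.766), which leaves room for a level between 0.762 and 1.19 times that of lean tumors. With 1 library left out it ranged from -0.23 without obese 3 (edgeR adjusted p = 0.218) to 0.03 without lean 3 (edgeR adjusted p = 0.924).

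Within a library, the ratio of 2 genes does not depend on how the library is scaled. The log2 ratio of Irs1 to Irs2 counts was 0.28, 1.02 and 0.44 in obese 1, 3 and 4, against 0.14, -0.06 and -0.06 in lean 1, 2 and 3. All obese libraries thus held more Irs1 relative to Irs2 than any lean library. The mean was 0.58 ± 0.39 in obese and 0.01 ± 0.12 in lean tumors (SD, n = 3 each), a difference of 0.57 (exact permutation test, two-sided, p = 0.1, the smallest that 3 against 3 allows; adjusted over 5 ratios, p = 0.333). Without obese 3 the difference was 0.35, still without overlap.

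Igf1r (ENSMUSG00000005533.10), at chromosome 7, 67952257 to 68233668, encodes the main signaling receptor for both IGFs. It had 117, 112 and 141 CPM in obese 1, 3 and 4, against 170.5, 173 and 181 CPM in lean 1, 2 and 3. The groups did not overlap, and the obese libraries were more spread out. Igf1r averaged 123 ± 15.4 CPM in obese and 175 ± 5.58 CPM in lean tumors (SD, n = 3 each). The log2 fold change was -0.50 (SE 0.11, 95% interval -0.75 to -0.26), or 0.705 times the lean level (edgeR adjusted p = 0.0115). Without obese 1 the log2 fold change was -0.46 and the call was just lost (edgeR adjusted p = 0.0511); without any other single library it held.

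Insr (ENSMUSG00000005534.10), at chromosome 8, 3150922 to 3279649, encodes the insulin receptor, which can also pair with the IGF1 receptor in hybrid receptors. It had 168, 172 and 148 CPM in obese 1, 3 and 4, against 189, 193 and 201 CPM in lean 1, 2 and 3. Here too every obese library lay below every lean one, with obese 4 the lowest, whereas obese 4 was the highest obese library for Igf1r. Insr averaged 163 ± 13.1 CPM in obese and 194 ± 6.38 CPM in lean tumors (SD, n = 3 each), but it did not pass the test over all genes (log2 fold change -0.25, SE 0.10, edgeR adjusted p = 0.0886, unadjusted p = 0.0254).

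The summed CPM of both receptors differed little within the obese group. It was 285, 285 and 289 CPM in obese 1, 3 and 4, against 359, 366 and 382 CPM in lean 1, 2 and 3. The log2 difference of the group means was -0.37, a description to which no test was applied; it was -0.31 when libraries were scaled by their totals only. The obese sums lay closer together than the counting error of either receptor alone. In obese 1 the exact Poisson 95% interval, which covers counting error only, was 109.6 to 124 CPM for Igf1r and 159.8 to 177 CPM for Insr. Whether the receptors offset each other was not tested. The ratio between the receptors varied among the obese tumors. The log2 ratio of Insr to Igf1r counts was 0.53, 0.62 and 0.07 in obese 1, 3 and 4, against 0.15, 0.16 and 0.15 in lean 1, 2 and 3. The ratio was almost the same in every lean tumor, and the lean values lay inside the obese range. The difference of the means was 0.25 (exact permutation test, p = 0.4; adjusted over 5 ratios, p = 0.4). It was 0.42 without obese 4, where the groups no longer overlapped (exact permutation test, p = 0.1, again the lower limit), and 0.15 without obese 3 (exact permutation test, p = 0.7).

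**Figure D2:**
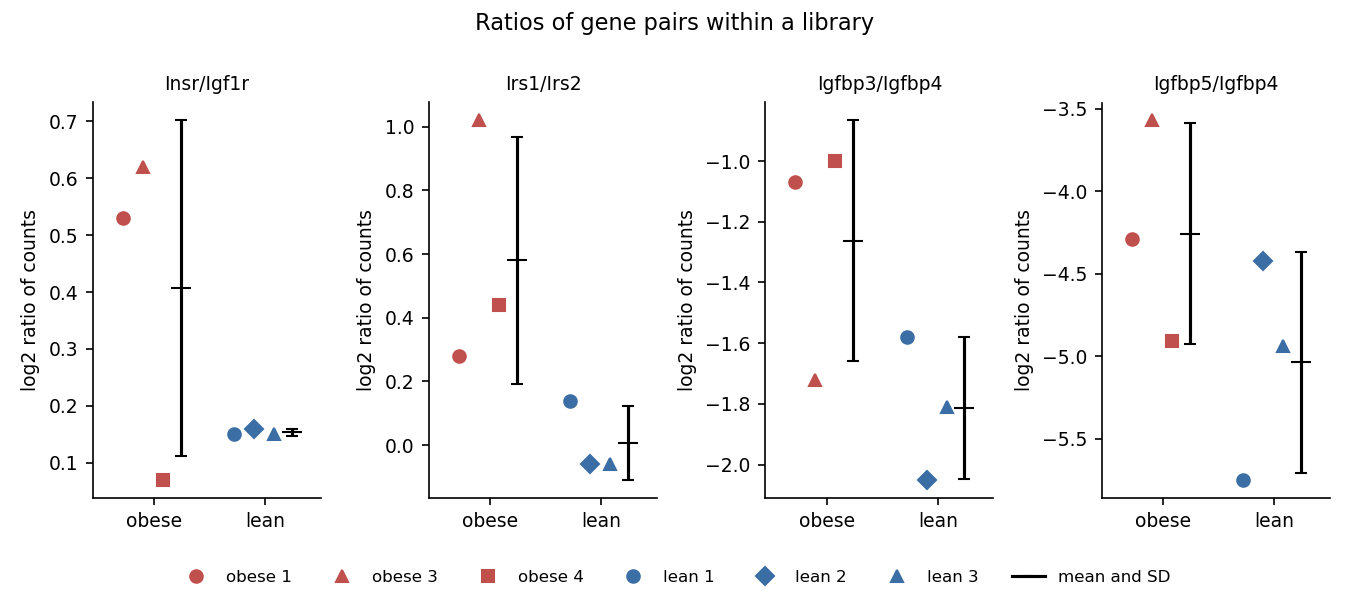
Log2 ratio of the counts of gene pairs within each library, with the mean and SD of the 3 obese (red) and 3 lean (blue) libraries. Irs1 relative to Irs2 is higher in all 3 obese libraries (0.28 to 1.02) than in the lean ones (-0.06 to 0.14), whereas the other ratios shown overlap between the groups.

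Igf1 (ENSMUSG00000020053.18), at chromosome 10, 87858265 to 87937047, encodes the ligand of the IGF1 receptor, a hormone of the liver that is also made locally by fibroblasts and macrophages. It had 15.4, 30.5 and 13.4 CPM in obese 1, 3 and 4, against 11.8, 14.9 and 14.3 CPM in lean 1, 2 and 3. Only obese 3 stood out: its 249 counts have an exact Poisson 95% interval of 26.8 to 34.5 CPM, which covers counting error only and lies above the values of all other libraries. Igf1 averaged 19.7 ± 9.34 CPM in obese and 13.6 ± 1.67 CPM in lean tumors (SD, n = 3 each). Its log2 fold change was 0.53 (SE 0.29, 95% interval -0.10 to 1.17) and did not pass the test (edgeR adjusted p = 0.206). Without obese 3 the log2 fold change was 0.08 (edgeR adjusted p = 0.814).

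Igfbp4 (ENSMUSG00000017493.12), at chromosome 11, 99040005 to 99052655, encodes a binding protein known to restrain IGF action until it is cut by the protease PAPP-A. It had more counts in every library than any other member. Igfbp4 stood at 1007, 1002 and 1091 CPM in obese 1, 3 and 4, against 1264, 1281 and 1291 CPM in lean 1, 2 and 3. The groups did not overlap, and the spread within each was the smallest among the members, 4.83% of the mean in obese and 1.08% in lean tumors. The log2 fold change was -0.31 (SE 0.09, 95% interval -0.51 to -0.11), or 0.808 times the lean level (edgeR adjusted p = 0.0373). This call was close to the threshold: it was lost when any 1 library was left out (edgeR adjusted p = 0.0521 to 0.115), with upper-quartile factors (0.0528) and with library totals only (0.0626), while the log2 fold change stayed between -0.35 and -0.25.

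Igfbp3 (ENSMUSG00000020427.11), at chromosome 11, 7206086 to 7215498, encodes the main IGF carrier of blood, which also acts on cells without IGFs. It had 481, 304 and 547 CPM in obese 1, 3 and 4, against 423, 309 and 369 CPM in lean 1, 2 and 3. Obese 1 and 4 were above all lean libraries, whereas obese 3 was about level with lean 2, the lowest lean library. With all libraries the log2 fold change was 0.28 (SE 0.19, 95% interval -0.15 to 0.70, edgeR adjusted p = 0.326). Without obese 3 it was 0.49 and passed the test (edgeR adjusted p = 0.0216), so whether Igfbp3 is called depended on that library. Other libraries moved it the other way, to 0.10 without obese 4 (edgeR adjusted p = 0.77) and 0.16 without lean 2 (edgeR adjusted p = 0.661).

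Igfbp5 (ENSMUSG00000026185.8) encodes a binding protein that is held in the extracellular matrix and is a known marker of stromal and remodeling tissue. The gene lies at chromosome 1, 72858065 to 72874865, where its span is 5590 bases from that of Igfbp2. It had 51.4, 84.4 and 36.3 CPM in obese 1, 3 and 4, against 23.4, 59.6 and 42.1 CPM in lean 1, 2 and 3. Both groups were widely spread and overlapped, with obese 3 the highest and lean 1 the lowest. The log2 fold change was 0.46 (SE 0.33, 95% interval -0.27 to 1.20, edgeR adjusted p = 0.342), and its size rested on several libraries. It was 0.08 without obese 3, 0.17 without lean 1, 0.70 without obese 4 and 0.81 without lean 2, and passed the test in none of these (edgeR adjusted p = 0.165 to 0.873).

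Igfbp2 (ENSMUSG00000039323.18), at chromosome 1, 72824480 to 72852474, encodes a binding protein of fetal tissues, liver and brain that is often raised in tumors. It had 8, 9 and 6 counts in obese 1, 3 and 4, against 11, 2 and 5 counts in lean 1, 2 and 3. The sums of 23 counts in obese and 18 counts in lean libraries gave an obese over lean ratio of 1.20 with an exact (Clopper-Pearson) 95% interval of 0.619 to 2.36. The interval covers counting error only and leaves out the spread between libraries.

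Among the counts of the 4 binding proteins together, Igfbp4 made up 67.5% ± 3.90 in obese and 75.8% ± 1.89 in lean tumors (SD, n = 3 each), and Igfbp3 made up 28.6% ± 5.88 in obese and 21.7% ± 2.99 in lean tumors (SD, n = 3 each). These shares also depend on transcript length, which was not measured in either group. The log2 ratio of Igfbp3 to Igfbp4 was -1.07, -1.72 and -1 in obese 1, 3 and 4, against -1.58, -2.05 and -1.81 in lean 1, 2 and 3. Obese 3 lay within the lean range, and the difference of the means was 0.55 (exact permutation test, p = 0.2; adjusted over 5 ratios, p = 0.333). Without obese 3 it was 0.78 and the groups did not overlap (exact permutation test, p = 0.1, again the lower limit). The ratio of Igfbp5 to Igfbp4 differed by 0.78 on the log2 scale (exact permutation test, p = 0.2; adjusted p = 0.333), a size that moved to 0.44 without obese 3 and 0.42 without lean 1, the libraries with the most and the fewest Igfbp5 counts, and up to 1.11 without others. The ratio of Igfbp2 to Igfbp4 differed by 0.79 (exact permutation test, p = 0.3; adjusted p = 0.375). That value was 0.31 without lean 2, which held 2 Igfbp2 counts, 1.29 without lean 1, and 0.49 with 5 instead of 0.5 added to the counts.

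**Figure D3:**
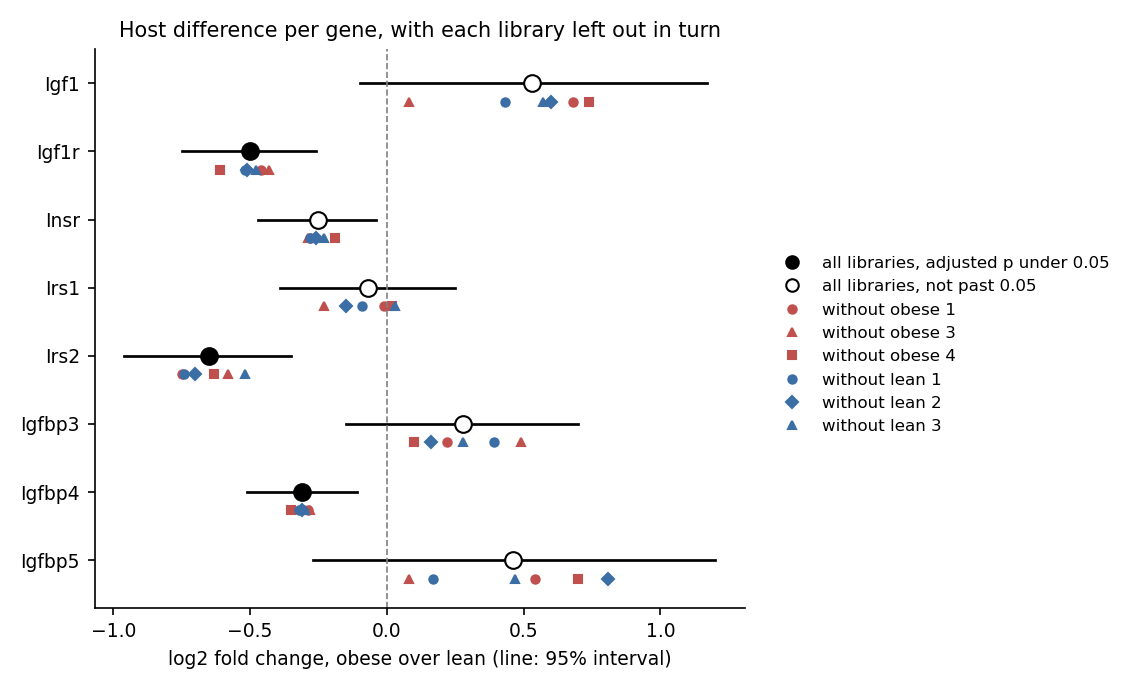
Fitted log2 fold change, obese over lean, of the 8 tested genes (large circles, filled where the adjusted p is under 0.05) with its 95% interval, and the value with each library left out (small symbols). Irs2, Igf1r, Igfbp4 and Insr, the last of which was not called, stay below 0 throughout. Igf1 and Igfbp5 come close to 0 without obese 3 (0.08 each).

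Obese 3 was often at the end of the range. It was the highest of the 6 libraries for Igf1, Irs1 and Igfbp5 and the lowest for Igf1r, Irs2, Igfbp3 and Igfbp4, that is, at an extreme for 7 of 9 members. Over all genes tested, it was the highest or lowest library for 36.4%, and the other libraries for 25% to 41.2%. Only for Igf1 and Igfbp5 did its exact Poisson 95% interval lie clear of that of every other library; Igfbp4, for example, had 1002 CPM in obese 3 and 1007 CPM in obese 1. Lean 3, with the lowest TMM factor (0.9589), was the highest library for 4 of the 9 members, Igf1r, Insr, Irs2 and Igfbp4. With library totals only, it was not the highest for Igfbp4. Without obese 3, Irs2 and Igf1r were still called, with log2 fold changes of -0.58 (edgeR adjusted p = 0.019) and -0.43 (edgeR adjusted p = 0.0227). Without lean 3 both calls also held but came closer to the threshold, at -0.52 (edgeR adjusted p = 0.042) and -0.48 (edgeR adjusted p = 0.0462).

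**Figure D4:**
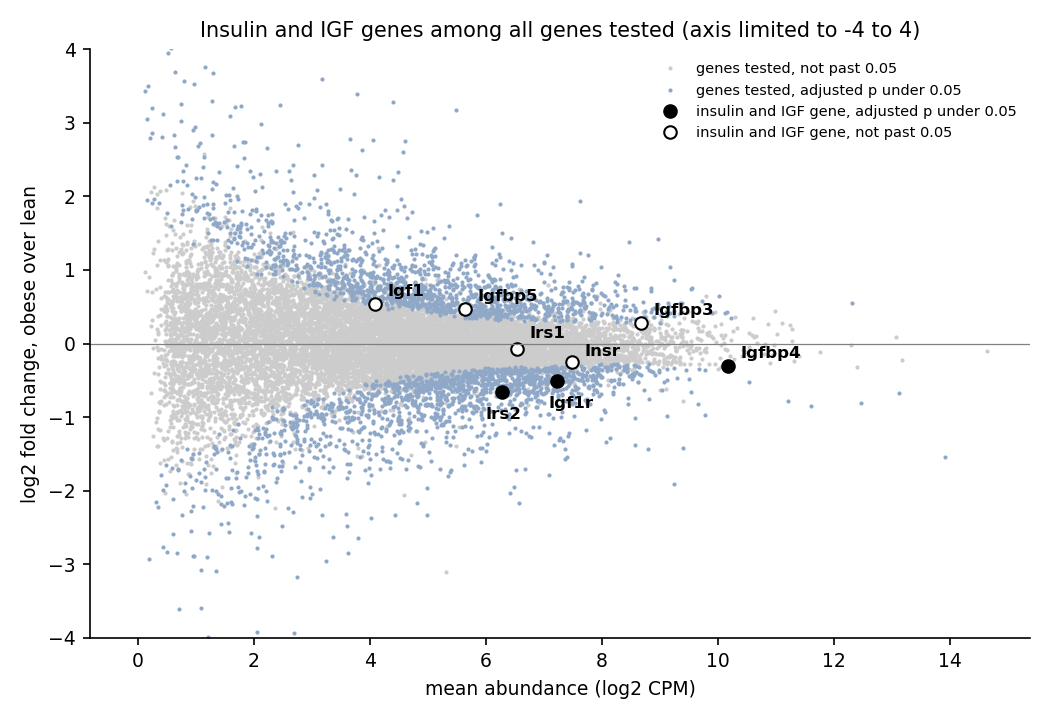
Log2 fold change, obese over lean, against mean abundance (log2 CPM) for the genes tested, with the 8 insulin and IGF genes marked; the vertical axis runs from -4 to 4 and leaves out 18 genes. The 3 called members lie at log2 fold changes of -0.65 to -0.31, well inside the range of the called genes.

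The members changed by amounts that many genes exceeded. The change of Irs2, the greatest of the members by size, exceeded that of 78.8% of the genes tested. The genes whose pattern over the 6 libraries was most like that of Irs2 were ENSMUSG00000006476.19 (Pearson's r = 0.9988 of log2 CPM) and ENSMUSG00000057863.6 (r = 0.994). The libraries shared their host groups, and 17 genes had an r above 0.98, so these are descriptions without a test.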

How the data were processed

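Total RNA from pancreatic tumors was depleted of ribosomal RNA before library construction, per the labels' protocols. The authors deposited raw counts per gene for 6 libraries, made with CASAVA, STAR and Subread on the mouse build GRCm38, per the submitters' processing notes. No version, setting or treatment of strand is given in the sources used here. The smallest sum of a gene over the 6 libraries, among all genes of the table, is 11 counts. Titles starting with OB were taken as obese and the others, starting with ND, as lean. Symbols of the 10 members come with the list of IDs, and positions come from the RefSeq gene table of GRCm38.p6 by symbol. RefSeq lists a gene overlapping Igf1 (Igf1os), 2 overlapping Igf1r and 1 overlapping Irs2 (9530052E02Rik). Whole spans were compared, not exons. Where exons overlap, reads might not be told apart from those of the members, since the treatment of strand is not given.

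Counts were tested in edgeR 4.0.16 (R 4.3.3): default expression filter (minimum count 10, minimum total 15; 14348 genes kept, 1298 removed), TMM factors, quasi-likelihood F test, two-sided, Benjamini-Hochberg adjustment over all genes tested, threshold 0.05. The SE is the size of the log2 fold change divided by the square root of F. Ratios used counts plus 0.5; the planned ratio of Igf1 to Igf2 was not computed. The edgeR steps were also run on counts simulated from the fit of these data, which checks the code and not the calls reported here. Alternatives were DESeq2 1.42.0 or limma 3.58.1 with voom weights as the test, RLE, upper-quartile or no factors, no filter or one on 1 CPM in 3 libraries, a replicate block, and each library left out in turn. All members were named whatever their values, with the 2 genes most like the member of smallest adjusted p. Members, lists and tests were chosen with earlier results of these data known. The planned lists of pathway genes and cell type markers, by symbol, were not tested, because the RefSeq table holds no Ensembl IDs to match.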

Additional observations from a re-analysis of the deposited data

How the results depend on the processing

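Over all genes, 2991 were called, 1474 higher and 1517 lower in obese hosts; with library totals only the split was 1797 higher and 1170 lower, and with upper-quartile factors 1654 and 1357. Leaving out 1 library gave 1179 to 3066 called genes (1461 without obese 1, 1956 without obese 4, 1179 without lean 2 and 1541 without lean 3) and 1 to 3 called members. Only Irs2 was called without obese 1. Irs2 stayed lower and past the threshold in all 14 alternatives, and Igf1r in 13. Under the 7 other scalings, filters and tests, Igf1r, Irs2 and, in 5 of the 7, Igfbp4 were called and no other member was. Igfbp2 could be fitted only without a filter (log2 fold change 0.29, SE 0.71, edgeR adjusted p = 0.808). Irs1 lay near 0, at -0.23 to 0.03 with 1 library left out (0.02 without obese 4, 0.03 without lean 3). The groups share just the library numbers 1 and 3. After the group means were removed, Pearson's r was 0.09 between the 2 libraries numbered 1 and 0.074 between those numbered 3. The other pairs across the groups had r from -0.131 to 0.066, so the pairs sharing a number were the highest. With so few libraries, these values cannot settle whether the number pairs samples. The main test did not pair by number, because no label states a pairing. With the replicate block, 2087 genes and 3 members were called: Igf1r, Irs2 and Igfbp5 (log2 fold change 1.07, edgeR adjusted p = 0.000336). Igfbp4 was not called (edgeR adjusted p = 0.0898), and Igfbp3 turned to -0.04 (edgeR adjusted p = 0.875). The numbers of obese 4 and lean 2 occur in 1 group only, so these libraries did not inform the host difference under the block. The block values thus rest on obese 1 and 3 against lean 1 and 3, not on all 6 libraries. That leaves little to measure spread between libraries, so the block p-values rest largely on spread borrowed from other genes. Without the block, Igfbp5 had an edgeR adjusted p = 0.342. The summed receptor CPM, whose alternatives were chosen after seeing the data, differed by -0.39 to -0.31 on the log2 scale under the other scalings and with each library left out. Depth limits Igfbp2 most, at 2 to 11 counts per library.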
